A study of Rattus norvegicus with 6 samples.

Results

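Cells make cholesterol, take it up, store it and pass it on through a set of well described genes, and 33 of them were followed here in rat Leydig cells that had or had not met exosomes of Sertoli cells. They were selected by gene name, without a threshold on any measured value, but the list was drawn up with earlier results of these data known. They comprised 7 genes of the mevalonate steps, 11 of the squalene and sterol steps, 5 of SREBP control, 4 of uptake and transfer, 2 of ester storage, and 4 of export and LXR. A probe was assigned to a gene where the RefSeq accession it carries belongs to that rat symbol. This gave 37 probes for 32 of the 33 genes, among 17997 probes for 15162 genes that could be named on the array, and Srebf1 had no probe by this rule. Of the 37 probes 36 were tested, and all 32 genes had a tested probe, among 10974 genes tested.

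Leydig cells make testosterone in the tissue between the seminiferous tubules, and Sertoli cells are the nurse cells inside the tubules. Both groups consisted of primary Leydig cells of Sprague-Dawley rats, kept in serum-supplemented F12/DMEM (10% fetal bovine serum) at 34 °C and 5% CO2. In 3 samples exosomes, small membrane vesicles shed by primary rat Sertoli cells, were present at 5 µg/ml for 24 h, and 3 untreated samples had no exosomes added. The age of the rats, and whether the untreated cells received a vesicle-free carrier, are not given in the sources used here. The labels number the replicates 1 to 3 in each group and do not tell whether a number stands for an animal or a culture of its own. The p-values therefore speak of the spread among these samples alone, which may be technical. In a bulk sample fewer cells of a type and less RNA per cell cannot be told apart.

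Cholesterol is built from acetyl-CoA through mevalonate, isoprenoid units, squalene and lanosterol. When sterols are scarce, SCAP escorts the SREBP transcription factors out of the endoplasmic reticulum, they are cut, and they switch on the synthesis genes. When sterols are plentiful, the INSIG proteins hold SCAP back, and oxysterols activate the LXR receptors, which switch on cholesterol export. In Leydig cells cholesterol is also the raw material of testosterone: the cells make it, take it from lipoproteins through SR-BI, and keep a reserve as esters in lipid droplets.

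Each sample was read on one 1-colour Agilent array. On the 6 arrays 67.2% to 75.6% of gene spots were well above background, no spot was saturated, and the 75th percentile of the processed intensity lay between 753 and 1061. Values are given as log2 of the processed intensity minus the 75th percentile of the same array, so that 0 stands for that percentile and 1 unit for a factor of 2. Changes are exosome minus untreated with the standard error (SE), n = 3 per group, and a gene passes the test where limma gives a Benjamini-Hochberg adjusted p below 0.05, the adjustment running over all 20433 tested probes. Arrays of the same group correlated at r of 0.984 to 0.994 and arrays of different groups at 0.969 to 0.983. The 3 untreated arrays shared 1 scan, exosome arrays 1 and 2 shared another and exosome array 3 had its own, so that scan and treatment cannot be told apart.

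Among 8 markers of Leydig cells 6 were tested, and Star, Hsd3b1 and Fdx1 were well above background on every array, whereas Nr5a1 and the luteinizing hormone receptor gene Lhcgr were not well above background on any. The summed linear level of the 6 markers was 87.1 to 97.0 times the 75th percentile in the untreated samples and 86.4 to 102 times in the exosome samples, and 1 of them, the side-chain cleavage enzyme Cyp11a1, fell (change -0.86, limma adjusted p = 0.00983). Hsd3b1, Star and Fdx1 made up most of these sums. Cyp17a1 was dim, with a mean of -4.94 in the untreated and -5.24 in the exosome samples. Markers of other cells were present. The 12 macrophage markers summed to 32.5 to 35.7 in the untreated and 22.4 to 31.3 in the exosome samples, with 4 of them lower and Cd68 at -3.45 on exosome array 3 against 3.15 to 3.47 on the other 5. The 6 tested Sertoli markers summed to 20.6 to 28.1 and 13.02 to 15.06, most of it Clu (log2 means of 4.23 and 3.21). Of them 2 were lower and 1 higher, and Amh was not well above background on any array. The 1 higher was Wt1, on its brightest probe only (0.49, limma adjusted p = 0.0321). Its other tested probes passed in the opposite direction (-1.09 and -1.16, limma adjusted p of 0.0118 and 0.0202), so that no direction can be given. The 6 peritubular myoid markers summed to 43.3 to 46.7 and 27.4 to 34.1 with 3 lower, and the 6 tested endothelial markers to 1.08 to 1.23 and 1.32 to 1.60 with 2 higher and 4 lower, Tek being not well above background on any array. The part of these cells in the values below was not tested. The marker counts stand beside 14.6% higher and 29.2% lower among all tested genes.

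Of the 32 cholesterol genes measured, 7 rose with exosomes, 4 fell and 21 did not pass the test. The risers were Hmgcs1, Idi1, Sqle, Cyp51 and Tm7sf2 of the synthesis pathway and Stard4 and Npc1 of intracellular cholesterol transfer. The 4 that fell were the synthesis genes Mvk and Nsdhl, the ester hydrolase gene Lipe and the LXR gene Nr1h2. Lipe met the filter of at least 3 arrays well above background through the untreated arrays alone, so its call is not independent of that filter. The share that rose was 21.9% beside 14.6% of all tested genes, the share that fell was 12.5% beside 29.2%, and 43.8% of all tested genes passed in either direction. Apart from Lipe, for which only a bound can be given, the changes ranged from -1.09 (Nsdhl) to 1.34 (Idi1). The median of the 32 was -0.13, also with Lipe at its bound, beside a median of -0.19 over all tested genes. For 12 of the 32 every exosome array was above every untreated array and for 8 every exosome array was below, beside 24.1% and 37.9% of all tested genes (62.0% in either direction), and the remaining 12 overlapped.

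**Figure D1:**
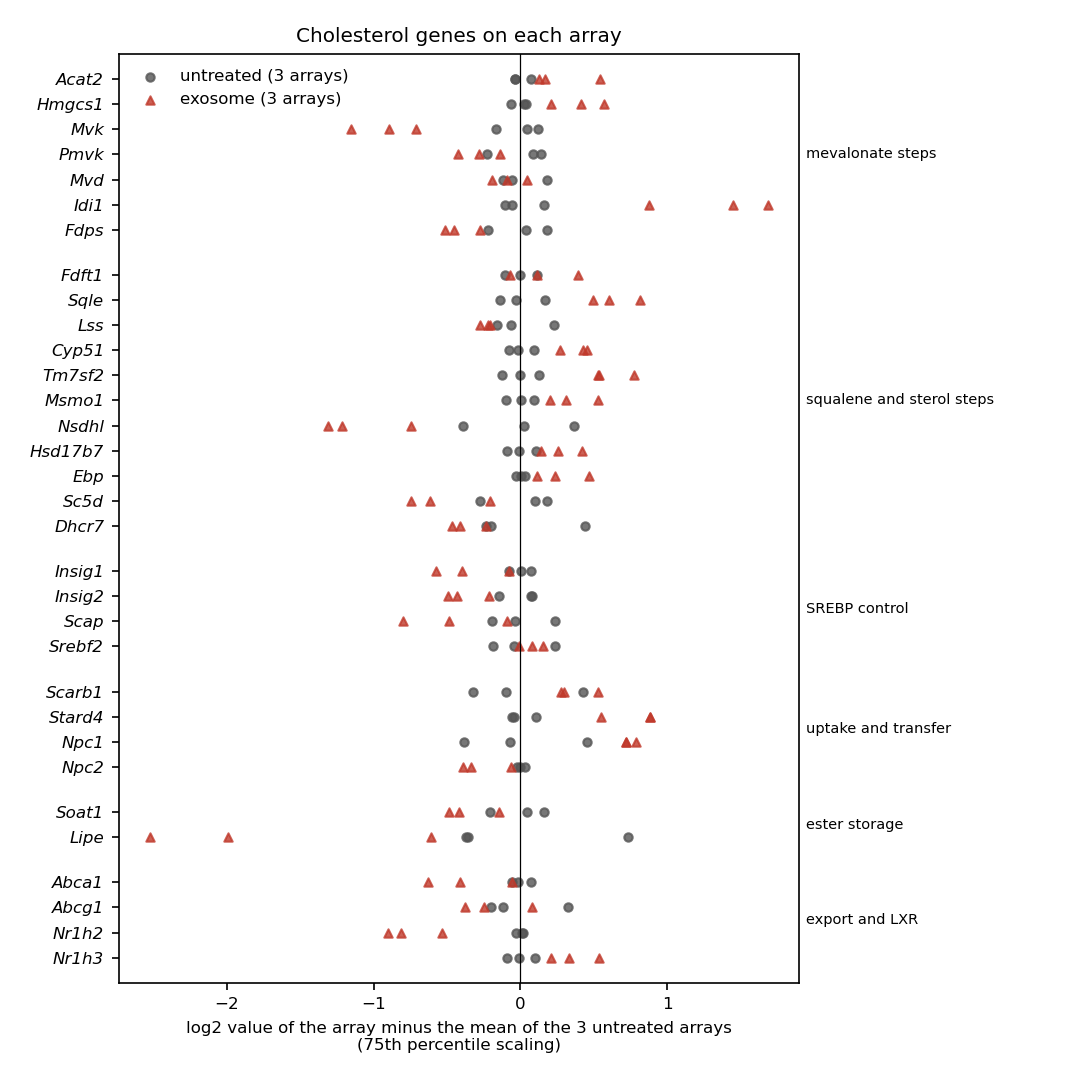
Each row is a cholesterol gene, ordered by role and pathway step, and each point 1 array: circles are the 3 untreated and triangles the 3 exosome samples. The horizontal axis is the log2 value minus the mean of the untreated arrays. The exosome points of Idi1 lie to the right of all untreated points, and those of Mvk, Nsdhl and Nr1h2 to the left.

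These counts depended on single arrays. Without untreated array 2, 1 member was higher (Idi1) and 0 were lower in limma after adjustment, whereas 5 were higher and 4 lower at an unadjusted p below 0.05, and the shares of all tested genes dropped to 1.22% higher and 7.47% lower. Without exosome array 2, 7 members were higher and 9 lower, beside 15.7% and 30.0% of all tested genes. Another scaling shifts the whole table, since the median change of all tested genes was 0.01 after quantile normalization and 0.03 after cyclic loess, and the split of all calls moved from 1597 higher and 3208 lower to 2212 and 1766 after quantile normalization. The shares of all tested genes that were higher and lower were 17.9% and 35.3% under a normexp background correction, 20.2% and 16.1% under quantile normalization, 25.1% and 16.9% under median centring, 20.2% and 16.2% in the authors' table, and 20.4% and 14.9% under cyclic loess. The 7 risers, and Mvk, Nsdhl and Nr1h2 among the 4 that fell, passed the test with the same sign under all 6 scalings tried. Of the 32 genes 29 kept 1 sign under all 6, the exceptions being Mvd, Soat1 and Abcg1. Without the filter on dim probes, Hmgcs1, Cyp51, Npc1 and Lipe did not pass (limma adjusted p of 0.0638 to 0.0951).

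**Figure D2:**
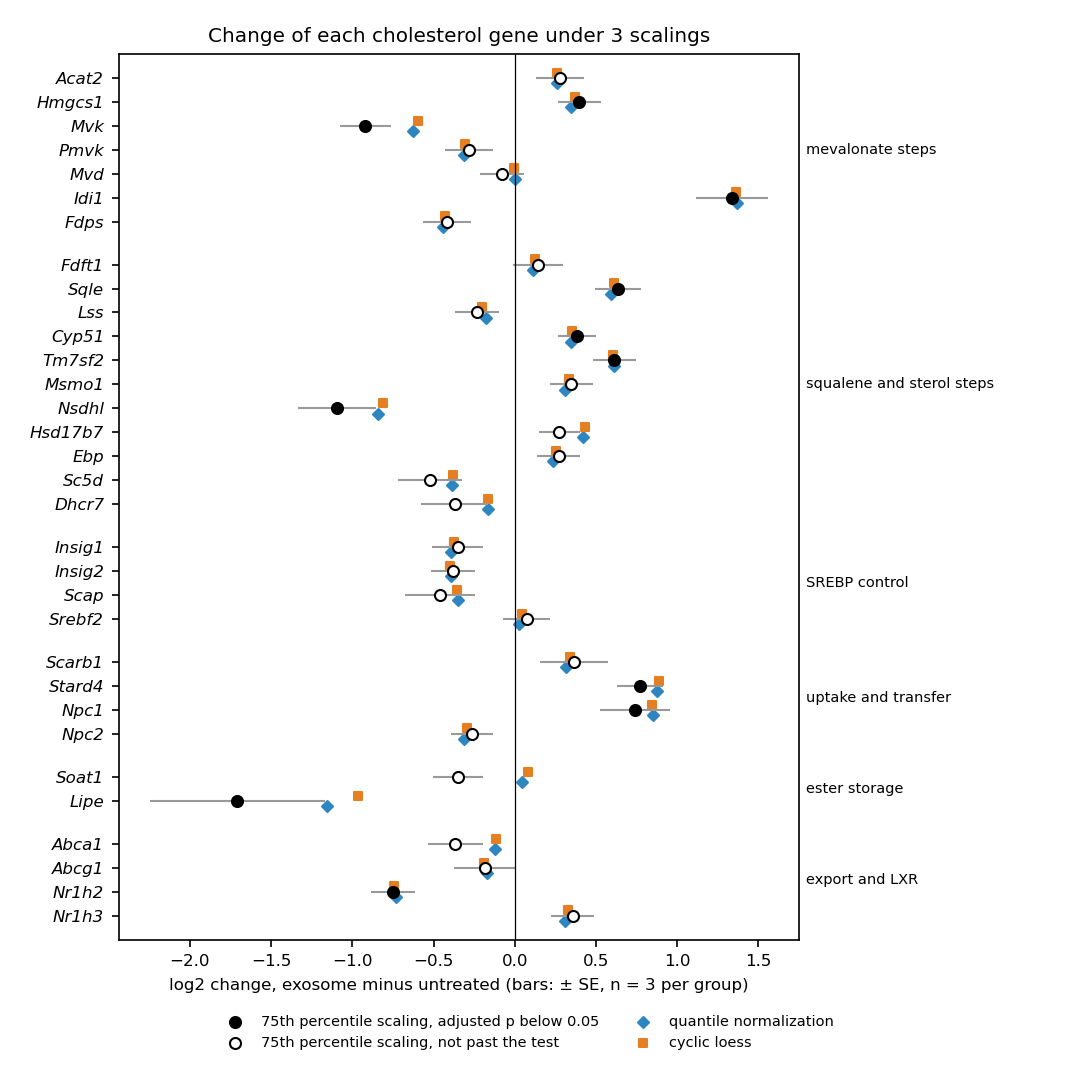
The log2 change of each cholesterol gene, exosome minus untreated, with bars of ± SE (n = 3 per group). Filled circles passed the test under 75th percentile scaling and open circles did not, while diamonds and squares give the change after quantile normalization and cyclic loess. Soat1 and Lipe moved most between scalings, and Idi1 stood at 1.34 under 75th percentile scaling with its other symbols beside it.

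The mevalonate steps lead from acetyl-CoA to farnesyl diphosphate, and of their 7 genes 2 rose and 1 fell, with a median change of -0.08. Of all tested genes 14.6% rose and 29.2% fell. The largest rise among all members was that of Idi1, the isomerase that turns isopentenyl diphosphate into dimethylallyl diphosphate. It read -0.44, -0.66 and -0.71 on untreated arrays 1 to 3 and 1.09, 0.27 and 0.85 on exosome arrays 1 to 3. All 3 exosome arrays were above all untreated ones, and exosome array 2 was the lowest of its group. The change was 1.34 ± 0.22, a 2.53-fold rise (limma adjusted p = 0.0110), where genes of like signal had a median change of 0.04. Among the 32 members only Idi1 passed in all 6 fits that left out an array, with changes from 1.16 to 1.57.

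Hmgcs1, which condenses acetyl-CoA and acetoacetyl-CoA to HMG-CoA, read 1.94, 2.05 and 2.03 on the untreated and 2.42, 2.22 and 2.58 on the exosome arrays. The groups did not overlap, and the lowest exosome array, array 2, lay 0.17 above the highest untreated one. The change was 0.40 ± 0.13, or 1.32-fold, and only just passed the test (limma adjusted p = 0.0496). It did not pass when any array but exosome array 2 was left out (limma adjusted p of 0.0972 to 0.135), nor with the scan as a random block (0.0693). Mvk, which phosphorylates mevalonate, went the other way, with -2.58, -2.38 and -2.30 on the untreated and -3.31, -3.13 and -3.58 on the exosome arrays. The groups were apart by 0.55 at their nearest arrays. The fall of 0.92 on the log2 scale, SE 0.16, was 1.89-fold (limma adjusted p = 0.0114), and dim genes of like signal had a median change of -0.35. Its call was lost without untreated array 2 (limma adjusted p = 0.05002).

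The other 4 genes of these steps did not pass the test. Acat2, which joins acetyl-CoA units in the first step, had a change of 0.28 ± 0.15 (limma adjusted p = 0.164), its exosome arrays at 3.09 to 3.51 and its untreated arrays at 2.93 to 3.04. Pmvk, the next kinase after Mvk, had a change of -0.28 ± 0.15 (limma adjusted p = 0.166), and Mvd, the decarboxylase, one of -0.08 ± 0.13 (limma adjusted p = 0.658), both with overlapping groups. Fdps, which makes farnesyl diphosphate, has 2 tested probes. The brighter one had a change of -0.41 ± 0.15 (limma adjusted p = 0.0603) and the other -0.52 ± 0.14 (limma adjusted p = 0.0271), and on both the 3 exosome arrays lay below the untreated ones. Along the mevalonate steps the genes therefore did not share a direction: Hmgcs1 and Idi1 were higher, and Mvk between them was lower.

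The squalene and sterol steps turn farnesyl diphosphate into squalene, lanosterol and finally cholesterol. Of their 11 genes 3 rose and 1 fell, beside 14.6% and 29.2% of all tested genes, and the median change was 0.27. Sqle, the epoxidase of squalene, read 1.83, 1.64 and 1.53 on the untreated and 2.27, 2.17 and 2.48 on the exosome arrays. The arrays of the groups were apart, untreated array 1 being the nearest to the exosome values. The rise was 0.64 ± 0.14, or 1.56-fold (limma adjusted p = 0.0170), and missed the threshold without untreated array 2 (0.0685), untreated array 3 (0.0642) or exosome array 1 (0.0547). Tm7sf2, a sterol reductase that acts after lanosterol demethylation, read 0.42, 0.29 and 0.17 on the untreated and 0.83, 0.82 and 1.07 on the exosome arrays. Again the groups were apart. Its rise was 0.61 ± 0.13, or 1.53-fold (limma adjusted p = 0.0158), and missed the threshold without untreated array 2 (0.0644) or untreated array 3 (0.0610).

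Cyp51, the demethylase of lanosterol, read 0.81, 0.87 and 0.98 on the untreated and 1.31, 1.15 and 1.33 on the exosome arrays, with no overlap and a gap of 0.18 between the nearest arrays. The rise was 0.38 ± 0.12, or 1.30-fold (limma adjusted p = 0.0392), and it did not pass when any array but exosome array 2 was left out (limma adjusted p of 0.0767 to 0.137) or with the scan as a random block (0.0589). Nsdhl, which helps remove the methyl groups of the sterol ring, was the member of this group that fell. It read -2.29, -1.87 and -1.53 on the untreated and -3.11, -2.64 and -3.21 on the exosome arrays. The untreated arrays spread widely (SD 0.38), and still all lay above the exosome arrays. The fall was 1.09 on the log2 scale, SE 0.24, or 2.13-fold (limma adjusted p = 0.0166), beside a median change of -0.34 for genes of like signal, and missed the threshold without untreated array 2 (0.0593), untreated array 3 (0.0562) or exosome array 1 (0.0549).

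Among the 7 others, Msmo1, the oxidase that works with Nsdhl on the ring's methyl groups, had a change of 0.35 ± 0.13 (limma adjusted p = 0.0734) with the groups apart. The sterol isomerase Ebp (0.27) and Hsd17b7, a ketoreductase of the same demethylation (0.27), were also higher on every exosome array than on any untreated array without passing (limma adjusted p of 0.134 and 0.122). Fdft1, which makes squalene, had a change of 0.14 (limma adjusted p = 0.472) with overlapping groups. The cyclase gene Lss (-0.23, limma adjusted p = 0.205) was lower on each exosome array, by a gap of 0.04 at the nearest arrays. Sc5d (-0.52, limma adjusted p = 0.0704) and Dhcr7 (-0.37, limma adjusted p = 0.183), which act at the end of the pathway, overlapped between groups. The spread of Dhcr7 came from untreated array 1, at -1.09 beside -1.77 and -1.74.

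SREBP proteins act with NF-Y and Sp1 at sterol-regulated promoters, and these promoters were read for the letters of such boxes because the synthesis genes had moved in both directions. The windows were the 250 bases before the gene start in the RefSeq promoter table of build GRCr8. They were found for 26 of the 33 genes (27 windows, Srebf1 having 2), and none was held for Scarb1, Abcg1, Lipe, Sqle, Fdft1, Stard4 and Pmvk. On either strand the NF-Y box CCAAT occurred in 19 of the 27 windows, or 70.4%, beside 34% of all 33469 windows in the table and 35.6% of those of tested genes. The Sp1 box GGGCGG occurred in 22, or 81.5%, beside 30.5% and 53.7%. The E-box CACGTG occurred in 4, or 14.8%, beside 5.59% and 7.57%. The SREBP element TCACNCCAC occurred in 0 of the 27 and in 0.974% of all windows, which says only that these letters are not in these windows. None of these 4 motifs contains another. Of the windows of genes that rose, 3 of 5 held CCAAT, and of those that fell 2 of 3. The 4 windows below are those of the risers Hmgcs1 and Idi1 and of Mvk and Nsdhl, which fell, 5′ to 3′ toward the gene start with CCAAT or its reverse complement ATTGG in capitals.
Hmgcs1, chr2:53382054-53382303, plus strand: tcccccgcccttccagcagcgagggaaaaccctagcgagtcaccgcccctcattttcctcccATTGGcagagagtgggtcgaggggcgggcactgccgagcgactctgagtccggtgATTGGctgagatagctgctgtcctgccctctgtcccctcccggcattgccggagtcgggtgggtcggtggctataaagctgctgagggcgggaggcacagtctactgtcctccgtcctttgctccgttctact
Idi1, chr17:66547525-66547774, minus strand: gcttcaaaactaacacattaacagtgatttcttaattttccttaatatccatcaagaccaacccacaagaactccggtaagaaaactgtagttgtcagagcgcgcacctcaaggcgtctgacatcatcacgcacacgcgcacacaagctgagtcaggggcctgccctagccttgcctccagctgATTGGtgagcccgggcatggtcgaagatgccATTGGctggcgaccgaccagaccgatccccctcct
Mvk, chr12:47819504-47819753, minus strand: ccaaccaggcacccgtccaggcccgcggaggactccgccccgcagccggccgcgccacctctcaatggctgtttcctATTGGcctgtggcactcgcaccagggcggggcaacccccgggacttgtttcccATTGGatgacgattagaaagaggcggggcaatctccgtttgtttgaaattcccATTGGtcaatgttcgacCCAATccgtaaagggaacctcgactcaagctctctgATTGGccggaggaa
Nsdhl, chrX:155817110-155817359, plus strand: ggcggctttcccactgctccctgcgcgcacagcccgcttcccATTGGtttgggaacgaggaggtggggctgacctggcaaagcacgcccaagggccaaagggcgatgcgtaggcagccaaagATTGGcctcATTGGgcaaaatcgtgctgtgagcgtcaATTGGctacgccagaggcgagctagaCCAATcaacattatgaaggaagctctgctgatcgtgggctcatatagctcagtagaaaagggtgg
The NF-Y box stands 2 times before Hmgcs1, 2 times before Idi1, 5 times before Mvk and 5 times before Nsdhl, so that it was present before genes of either direction. Of the other synthesis genes that rose and had a window, not printed here, Tm7sf2 held 1 box and Cyp51 held 0. A match of letters is a description and not a bound site.

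Of the genes of SREBP control, 0 of the 4 measured passed the test in limma (1 lower and 0 higher at an unadjusted p below 0.05), and their median change was -0.37. Insig1, the sterol-dependent anchor of SCAP and itself a target of SREBP, read 2.71, 2.64 and 2.56 on the untreated and 2.24, 2.56 and 2.06 on the exosome arrays. Exosome arrays 1 and 3 were below every untreated array, and array 2 reached the lowest of them. Its change was -0.35 ± 0.16 (limma adjusted p = 0.110), and it passed only without exosome array 2 (-0.49, limma adjusted p = 0.0288). Insig2, its paralog, had a change of -0.38 ± 0.13 (limma adjusted p = 0.0590) with the groups apart. Scap, the escort protein, had one of -0.46 ± 0.21 (limma adjusted p = 0.122). Without exosome array 2, Insig2 and Scap also passed as lower (limma adjusted p of 0.0375 and 0.0399), as did 30.0% of all tested genes. Insig2 passed too under normexp (limma adjusted p = 0.0227) and without untreated array 1 (0.0459). Srebf2, which encodes the SREBP most tied to cholesterol synthesis, read 1.64, 1.36 and 1.22 on the untreated and 1.39, 1.56 and 1.49 on the exosome arrays. The exosome arrays lay within the range of the untreated ones, and the change was 0.07 ± 0.14 (limma adjusted p = 0.701), of either sign depending on the array left out (-0.02 to 0.19).

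Uptake and transfer held 2 genes that rose among 4, beside 14.6% of all tested genes. The median change of the 4 was 0.56 on the brightest probe of each gene and 0.026 with the probes of a gene averaged. Stard4, a soluble carrier that moves cholesterol between membranes, read -1.16, -1.31 and -1.33 on the untreated and -0.38, -0.72 and -0.39 on the exosome arrays. The groups were apart, with exosome array 2 nearest to the untreated values. The rise was 0.77 ± 0.14, or 1.71-fold (limma adjusted p = 0.0118), and missed the threshold without untreated array 2 (0.0526). Npc1, which lets cholesterol leave the lysosome, read -0.70, -1.23 and -1.54 on the untreated and -0.44, -0.43 and -0.37 on the exosome arrays. The exosome arrays lay close together (SD 0.04) and the untreated ones did not (SD 0.42). The rise was 0.74 ± 0.22, or 1.67-fold (limma adjusted p = 0.0338). Without untreated array 1 the change was 0.97 and stayed past the test, and without any of the other 5 arrays it did not (limma adjusted p of 0.0666 to 0.103), nor with the scan as a random block (0.0540).

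Both calls rest on the brighter of 2 tested probes. The other probe of Stard4 had a change of -0.14 (limma adjusted p = 0.413) and that of Npc1 one of 0.12 (limma adjusted p = 0.545), and with its probes averaged the change of Npc1 was 0.43 (limma adjusted p = 0.0876). Scarb1, which encodes SR-BI and takes up cholesterol esters from lipoproteins, showed the widest disagreement. Its brighter probe read 2.18, 1.65 and 1.43 on the untreated and 2.03, 2.05 and 2.28 on the exosome arrays, with untreated array 1 inside the exosome range. The change was 0.37 ± 0.21 (limma adjusted p = 0.192), or 0.58 without untreated array 1 (limma adjusted p = 0.0305). The dimmer probe read -3.70, -3.70 and -3.64 on the untreated and -4.66, -4.46 and -4.66 on the exosome arrays, a change of -0.91 ± 0.11 that passed the test (limma adjusted p = 0.00983). No direction can therefore be given for Scarb1. Npc2, the soluble partner of Npc1 in the lysosome, had a change of -0.26 ± 0.13 (limma adjusted p = 0.140) with the groups apart.

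**Figure D3:**
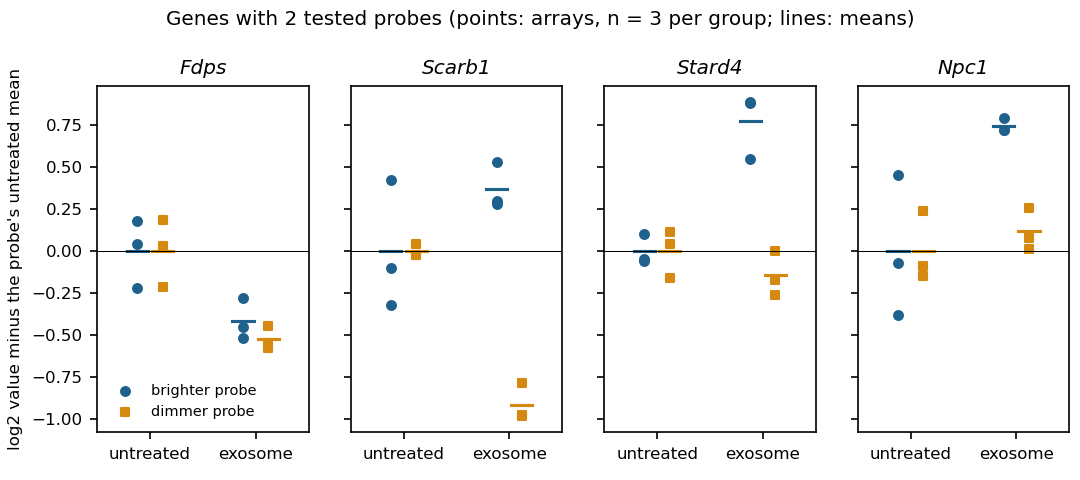
The 4 cholesterol genes with 2 tested probes, each value given as log2 minus the untreated mean of its own probe. Points are arrays (n = 3 per group), lines are group means, circles the brighter and squares the dimmer probe. The probes of Fdps moved together, and those of Scarb1 moved apart, to means of 0.37 and -0.91.

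Ester storage was represented by Soat1, which esterifies cholesterol, and Lipe, the hormone-sensitive lipase that frees it again in steroid-making cells. Lipe was dim, at -5.64, -5.65 and -4.55 on the untreated and -7.27, -7.81 and -5.89 on the exosome arrays. It was well above background on the 3 untreated arrays and on 0 of the exosome arrays, so that only a bound can be given. The other probe of Lipe was not well above background on any array, its groups overlapped, and it was too dim to test. Each exosome array entered the bound at the higher of its own value and the dimmest signal rated well above background on it, and Lipe was then at least 1.78-fold lower with exosomes (fitted change -1.71 ± 0.54, limma adjusted p = 0.0429). This bound holds only for the processed intensity under 75th percentile scaling. With the normexp background correction, which was also scaled to the 75th percentile, the fitted change was -0.43, a smaller fall than the bound. It was -0.96 under cyclic loess and -1.15 under quantile normalization, and -2.26 to -1.30 when an array was left out. The call was lost under quantile normalization (limma adjusted p = 0.139), median centring (0.0715), the authors' table (0.140), cyclic loess (0.219) and the scan as a random block (0.0644), and without any array but exosome array 3 (0.0583 to 0.127). Soat1 had a change of -0.35 ± 0.15 (limma adjusted p = 0.107) with overlapping groups, and its sign turned under quantile normalization (0.05), cyclic loess (0.08) and in the authors' table.

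The genes of export and of the LXR receptors had 1 member past the test among 4, beside 43.8% of all tested genes. Their median change was -0.27. Nr1h2, which encodes the widely expressed receptor LXR-beta, read 0.72, 0.68 and 0.73 on the untreated and -0.10, 0.18 and -0.19 on the exosome arrays. The untreated arrays lay close together (SD 0.03), and all exosome arrays were below them by 0.50 or more. The fall was 0.75 on the log2 scale, SE 0.13, or 1.68-fold (limma adjusted p = 0.0116), where genes of like signal had a median change of 0.04, and it just missed the threshold without untreated array 2 (0.0507). Nr1h3, which encodes LXR-alpha, pointed the other way with a change of 0.36 ± 0.13 and the groups apart, but did not pass (limma adjusted p = 0.0680). The difference between these genes was not tested. Abca1, the exporter to apolipoprotein A-I and a classical LXR target, read -1.98, -1.95 and -1.85 on the untreated and -2.34, -1.98 and -2.56 on the exosome arrays. Exosome array 2 lay among the untreated arrays and the other two below them. Its change of -0.37 ± 0.17 did not pass (limma adjusted p = 0.119) except without exosome array 2 (-0.52, limma adjusted p = 0.0269), and that of the exporter Abcg1 was -0.18 ± 0.19 (limma adjusted p = 0.466).

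Set against the other members, the 18 synthesis genes had 5 rises, 2 falls and a median change of 0.21, and the 14 genes of control, transport, storage and export had 2 rises, 2 falls and a median of -0.31. Under quantile normalization these medians were 0.17 and -0.15, and under cyclic loess 0.19 and -0.15. Change moved with signal over the whole array: the median change was -0.59 for genes with a mean signal below -4, -0.38 from -4 to -2, -0.14 from -2 to 0, 0.12 from 0 to 2, and 0.15 above 2. The synthesis genes had a median signal of 0.81, the 14 others 0.39, and all tested genes -1.66. The 2 synthesis genes that fell, Mvk and Nsdhl, were the dimmest of the 18. Both lay from -4 to -2, where 39.2% of all tested genes were lower and 8.42% higher. The synthesis genes that rose lay above 0. There 26.1% were higher and 19.5% lower from 0 to 2, and 22.5% and 10.5% above 2. Relative to the median of genes within 0.5 log2 units of signal, the synthesis genes had a median change of 0.04, with 9 of 18 above and 9 below, and the 14 others -0.16, with 5 above and 9 below. Over the 32 members, which share their 6 arrays, change and signal correlated at r of 0.51 and rho of 0.40, beside 0.39 and 0.41 over all tested genes.

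**Figure D4:**
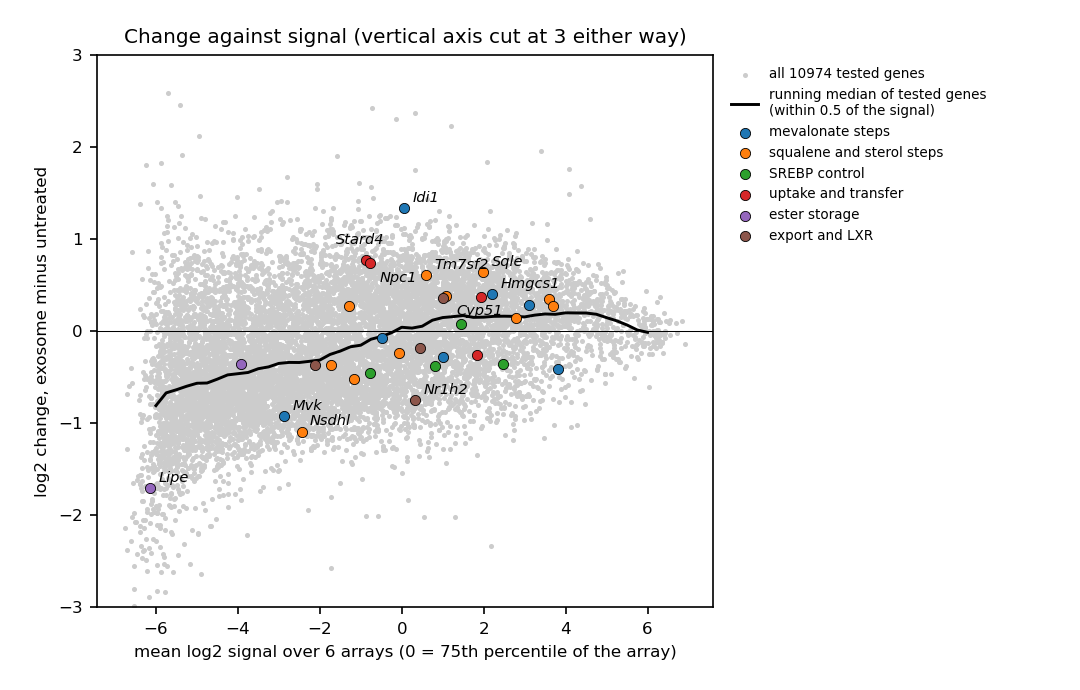
Change (exosome minus untreated, log2) against mean log2 signal over the 6 arrays, for all 10974 tested genes in grey and the cholesterol genes in colour by role. The black line is the running median of all tested genes within 0.5 of the signal. Named points passed the test: Idi1, Stard4, Npc1, Tm7sf2, Sqle, Hmgcs1 and Cyp51 lie above the line, and Mvk, Nsdhl, Lipe and Nr1h2 below it.

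The arrays did not contribute alike. Exosome array 2 was the exosome array nearest to the untreated mean for 28 of the 32 members, or 87.5%, beside 63.5% of all tested genes. Untreated array 1 was the farthest from the untreated median for 25 members, or 78.1%, beside 58.0%. The median SD between arrays was 0.15 in the untreated and 0.18 in the exosome group for the members, and 0.16 and 0.19 for all tested genes.

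Outside the 33 genes, 44 related genes of the pathway were listed, of which 40 were tested. The rest had no probe by the accession rule or were too dim. Of the 40, 8 were higher and 17 lower past the test, or 20% and 42.5%, beside 14.6% and 29.2% of all tested genes. The 8 include Mylip, whose probes passed in opposite directions. The median change was -0.44, and without untreated array 2 the counts in limma were 0 and 3 (5 and 17 at an unadjusted p below 0.05), beside 1.22% and 7.47% of all tested genes. All 7 genes of acetyl-CoA supply and the isoprenoid branch passed the test, 3 higher and 4 lower, beside 43.8% of all tested genes. Of these 7, 0 passed in limma without untreated array 2 (2 higher and 4 lower at an unadjusted p below 0.05). Without untreated array 3 only 1 passed, without exosome array 1 also only 1, and without exosome array 3 only 2. Acly, which makes cytosolic acetyl-CoA from citrate, rose by 0.66 (limma adjusted p = 0.0281), as did Coq2 of ubiquinone synthesis by 0.56 (0.0342) and Ggps1, which makes geranylgeranyl diphosphate, by 0.45 (0.0414). The citrate carrier Slc25a1 fell by 0.81 (limma adjusted p = 0.0145), Acss2, which makes acetyl-CoA from acetate, by 0.83 (0.0416), and Fnta and Fntb, the subunits of farnesyltransferase, by 0.77 (0.0254) and 0.79 (0.0117).

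In SREBP processing and sterol sensing 1 of 8 tested genes rose and 3 fell, among them Mbtps1, the first protease that cuts SREBP, with a change of -0.51 (limma adjusted p = 0.0212). Of 16 sterol carriers and receptors 2 rose and 6 fell, with the sterol carriers Gramd1b at -0.89 (limma adjusted p = 0.0114) and Stard5 at -0.85 (0.0116). Of 9 oxysterol enzymes and LXR targets 4 fell and 2 were higher past the test, Cyp7b1 and, on its brighter probe only, Mylip. These counts stand beside 14.6% higher and 29.2% lower among all tested genes. With untreated array 2 left out, limma after adjustment gave 0 higher in each list, and 0, 1 and 2 lower in this order. At an unadjusted p below 0.05 these were 0, 1 and 2 higher and 3, 6 and 4 lower. The adjusted shares of all tested genes were then 1.22% higher and 7.47% lower. Cyp27a1, which makes an oxysterol that activates LXR, had the smallest p of the 40 and read -1.89, -1.52 and -1.33 on the untreated and -2.79, -3.08 and -2.74 on the exosome arrays. The groups were apart, and the change was -1.29 ± 0.18 (limma adjusted p = 0.00983). Cyp7b1, which hydroxylates oxysterols further, rose by 0.76 (limma adjusted p = 0.0117), and Lpcat3, a phospholipid acyltransferase and LXR target, fell by 1.11 (0.0105). Mylip, the ubiquitin ligase induced by LXR that degrades lipoprotein receptors, had a change of 0.68 on its brighter probe (limma adjusted p = 0.0183) and of -0.71 on the other (0.0192), so that no direction can be given. The other probe was dim and well above background on only 1 exosome array. Genes of like signal had a median change of 0.02 for the brighter probe and of -0.70 for the dimmer one.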

How the data were processed

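RNA of 3 untreated and 3 exosome-treated samples was read on 1-colour Agilent arrays. Per the file headers, the deposited array files hold a processed intensity per spot from Agilent Feature Extraction 11.0.1.1, background-corrected and detrended by array but with no scaling across arrays, beside quality flags. The authors' deposited series table gives log2 values whose columns share a median of 5.68 and a maximum of 17.0, and it was used as an alternative. Its normalization method is not given in the sources used here.

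Controls and outlier spots were left out, spots of a probe were averaged on the log2 scale, and each array's 75th percentile was subtracted. A probe was tested if well above background on at least 3 of 6 arrays, which kept 20433 of 30367 probes (67.3%), and a gene stands for its tested probe of highest mean signal. limma 3.58.1 in R 4.3.3 fitted the groups (lmFit, eBayes, prior degrees of freedom 2.60), with Benjamini-Hochberg adjustment over all tested probes. Python 3.11.15 with pandas 2.3.3, numpy 2.4.6 and matplotlib 3.10.9 did the rest. Symbols were looked up by RefSeq accession in a gene table of assembly GRCr8; the probe design rests on another build, so no probe position is given. A few other genes of the pathway are not reported here.

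All 33 genes are accounted for. Values on every array are given for each member past the test and for Hmgcs1, Insig1, Srebf2, Scarb1 and Abca1, and for related genes the 4 of smallest p past the test in each direction are named. Ggps1, Slc25a1, Acss2, Fnta, Fntb and Mbtps1 were named after their values were seen. The members and the gene lists were chosen with earlier results of these data known.

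For a gene above background on no array of a group, a bound was taken with each array of that group at the higher of its own value and the lowest signal rated well above background on it. Genes of like signal are those within 0.5 log2 units of mean signal. The procedure was tested on simulated data for this comparison (20416 probes, of which 50 were changed at each fold and the rest were not). Of probes changed 1.5-fold 8% were recovered, of those changed 2-fold 48%, of those changed 4-fold 74% and of those changed 8-fold 90%. There were 11 false calls among 121. In the measured data 43.8% of tested genes passed, which makes the Benjamini-Hochberg cut less strict. The simulated shares are therefore not the recovery in the measured data. The number of arrays limits the precision. Alternatives were normexp with an offset of 50 (on the median intensities, since the files hold no mean intensity), quantile normalization, median centring, the authors' table, no filter, a filter on all 6 arrays, outlier spots kept, the mean over a gene's probes, replicate number and scan as blocks, and each array left out. Cyclic loess and the use of a gene's other probe were added after seeing the data.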

Additional observations from a re-analysis of the deposited data

How the results depend on the processing

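With 3 arrays a group the calls are fragile: over 18 alternatives the 15 members given on every array had 202 of 257 values with the same sign and call, 48 of the same sign that lost their call, 3 that gained one and 4 of the opposite sign. Those 4 were Srebf2 without untreated array 3 (-0.021; -0.021 to 0.19 leaving out an array), Scarb1 with its probes averaged (-0.27) or its other probe (-0.91), and Stard4 with its other probe (-0.14). Leaving out an array kept 55 of 90. The causes were not tested. Without the filter fewer genes were called among more tested, and Lipe left the set when all 6 arrays had to be above background.

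Members past the test numbered 12 higher under median centring, 4 without the filter and 4 with the scan as a random block, and 8 lower under normexp. Leaving out an array gave 1 to 7 higher and 0 to 9 lower. Of all tested genes, 2754 were higher under median centring and 864 without the filter, and 1766, 1856, 1782 and 1634 were lower under quantile normalization, median centring, the authors' table and cyclic loess. Leaving out an array gave 134 to 1724 higher and 820 to 3294 lower. Of the related genes, 2 were higher without the filter and 3 with the scan block, and 10, 9, 10, 10 and 10 were lower under quantile normalization, median centring, the authors' table, no filter and cyclic loess. Leaving out an array gave 0 to 8 higher and 3 to 19 lower.

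The median change of the mevalonate steps turned positive under quantile normalization (0.0042), median centring (0.15) and the authors' table (0.0037), and was -0.14 to 0.011 leaving out an array. Median centring moved the medians of the squalene and sterol steps to 0.50, SREBP control to -0.13, uptake and transfer to 0.79, and export and LXR to -0.043. Averaging the probes of a gene moved uptake and transfer to 0.026. The 2 genes of ester storage had a median of -0.35 under normexp, -0.55 under quantile normalization, -0.55 in the authors' table and -0.44 under cyclic loess. It was -0.59 at 75th percentile scaling with Lipe at its bound, and Soat1 alone, above background on all arrays, had -0.35.

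Deviations of same-numbered arrays from their group means correlated at -0.09, -0.03 and -0.02, and those of differently numbered arrays at -0.063 to 0.105. With 3 arrays a group, these values cannot tell whether the replicate numbers pair the samples. With the replicate number as a block the members past the test were 4 higher and 4 lower, the related genes 2 and 14, and all tested genes 768 and 2409.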

Other observations

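Differences between members on the same array are free of any constant shift between arrays, though not of scalings that vary with signal. The differences of 6 pairs are given on the 75th percentile scale, taken after their values were seen and for description only. The difference Idi1 minus Mvk, counted from its untreated mean, was 2.58, 1.59 and 2.61 on exosome arrays 1 to 3 and 0.33, -0.10 and -0.23 on untreated arrays 1 to 3. Idi1 minus Fdps was 1.75 higher on the exosome than on the untreated arrays, Sqle minus Nsdhl 1.73, Tm7sf2 minus Nsdhl 1.71, and Stard4 minus Nr1h2 1.52. Between the LXR genes, Nr1h3 minus Nr1h2 was 1.14, 0.74 and 1.44 on the exosome arrays and 0.09, 0.02 and -0.11 on the untreated arrays. In each of these the 3 exosome arrays lay above the 3 untreated ones, which the choice of pairs had fixed. In every pair the first gene was already higher, and the second lower, on all exosome arrays. Over the 6 scalings the exosome minus untreated value ranged from 1.90 to 2.26 for Idi1 minus Mvk, from 1.42 to 1.73 for Sqle minus Nsdhl, and from 1.03 to 1.11 for Nr1h3 minus Nr1h2.

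The disagreement of probes seen for Scarb1, Stard4 and Npc1 was common on the array. Of 1492 genes with exactly 2 tested probes, 756 had probes of the same sign, or 50.7%, and of 265 with both probes past the test 143 agreed in direction and 122 did not. The median absolute difference between the changes of such probes was 0.58. Members with a single tested probe, among them Idi1, Mvk, Nsdhl, Sqle and Nr1h2, could not be checked in this way. The probes of a gene can also differ in signal, with which change moved over the whole array. Which transcript each probe reads, and the part of signal in the disagreement, were not tested.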
